A study of Camellia sinensis with 15 samples.

Results

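The transcription factor genes CSS0018401 and CSS0049619, both of the AP2/ERF family, and CSS0041447, of the bHLH family, were followed in roots of the tea cultivar 'Fuding Dabaicha' (*Camellia sinensis*) under cadmium (Cd) and arsenic (As). They were taken by identifier, as transcription factor genes with a stated maximum at the earlier time under both metals. They are 3 of the 59128 genes in the expression tables, and all 3 were among the 33109 genes tested, which reached an FPKM (fragments scaled by gene length and library depth) of 1 in at least 3 libraries. By group means of the libraries used here, with 2 in Cd1, the stated maximum was found for CSS0041447 under both metals. It was found for CSS0018401 under As only, and for CSS0049619 under neither metal. By group means, 37% of all genes tested had such a maximum under Cd, 35% under As and 16.8% under both. In the main fit described below, the rise over untreated roots passed the threshold for CSS0041447 under Cd and CSS0018401 under As. It did not pass for CSS0041447 under As. None of the falls from these maxima to the later time passed in that fit.

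RNA of wild-type roots was sequenced in 5 groups. Cd2 and Cd1 roots had received Cd at 120 mg/kg for 15 d and 10 d, As2 and As1 roots had received As at 120 mg/kg for 15 d and 10 d, and CK roots had received no treatment. The dose and the times are those of the methods, whereas the labels read day 15 for every library. The time at which CK was sampled is not given beyond that label, and both times of each metal are compared with the same 3 CK libraries. Cd2, As2, As1 and CK had 3 libraries each and Cd1 had 2, because the table labelled Cd1 replicate 3 repeated that of Cd2 replicate 1 value by value and was counted once, as Cd2. The study lists other read and gene counts for Cd1 replicate 3 than for Cd2 replicate 1. Its own Cd1 replicate 3 was therefore not seen here, and its statements on Cd1 rest on an unlike set of libraries. The labels do not say whether the replicates came from separate plants, so the p-values measure the spread between these libraries. The genes are named by identifiers alone, so the root label was not checked against root marker genes, and gene positions and sequences were not used here. In RNA of whole roots, fewer cells of a type and less RNA per cell cannot be told apart.

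AP2/ERF proteins are a large family of plant transcription factors that share a DNA-binding domain, and many ERF members act downstream of ethylene or in the responses to drought, salt and cold. The bHLH proteins bind DNA through a basic region and pair through a helix-loop-helix. In *Arabidopsis*, members of the bHLH family control the uptake of iron by roots and the growth of root hairs.

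Between 10483112 and 13846717 fragments per library were recovered from the FPKM values. The number of genes above 0 was lowest in As1 replicate 2 (35674) and highest in CK replicate 3 (39868). Differences were tested with limma-trend on log2(FPKM + 1), with all 5 groups in 1 model. A gene was called when its Benjamini-Hochberg adjusted p was under 0.05 over all genes tested and its |log2 fold change| was over 1. Of all genes tested, this called 0.0332% in Cd2 vs. CK, 3.18% in Cd1 vs. CK, 0.0151% in As2 vs. CK and 1.62% in As1 vs. CK. It called 1.53% in Cd2 vs. Cd1, 2.1% in As2 vs. As1, 0.00302% in Cd2 vs. As2 and 1.63% in Cd1 vs. As1. Of the 27 comparisons of the 3 genes, 2 were called, CSS0018401 in As1 vs. CK and CSS0041447 in Cd1 vs. CK. Both genes had been named as raised at 10 d from these same libraries, so the calls are not independent evidence of it.

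CSS0018401 had a higher FPKM in each of the 11 treated libraries than in any CK library. The FPKM was 293, 331 and 233 in Cd2 and 207 and 197 in Cd1. It was 182, 213 and 250.3 in As2 and 212, 297 and 278 in As1. In CK it was 118, 137 and 118. The lowest treated library, As2 replicate 1, lay above the highest CK library, CK replicate 2. Of all genes tested, 0.384% had every treated library above every CK library. Whatever the other treated groups did, 9.82% had every Cd2 library above every CK library. This share was 16% for Cd1, which had 2 libraries, 6.42% for As2 and 10.8% for As1. Since the study had named the gene as raised at 10 d from these same libraries, these shares do not make its values independent evidence. The gene was also one of the more abundant ones, with a mean FPKM above that of 98.7% of the genes tested.

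The group means of CSS0018401 ran in the order Cd2, As1, As2, Cd1 and CK. They were 286 ± 49.4 FPKM in Cd2 (SD, n = 3), 202 ± 7.10 in Cd1 (n = 2), 215 ± 34.2 in As2 (n = 3), 263 ± 44.7 in As1 (n = 3) and 124 ± 11.3 in CK (n = 3). The Cd2 mean was 2.30 times the CK mean, and the As1 mean was 2.11 times the CK mean. As2 and Cd1 stood closer to CK, at 1.73 and 1.63 times its mean. Neighbours in this order overlapped between Cd2 and As1, As1 and As2, and As2 and Cd1, and separated only between Cd1 and CK.

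Only the As1 change of CSS0018401 was called. In As1 vs. CK the log2 fold change was 1.06 ± 0.19 (SE; 95% interval 0.65 to 1.48), with an adjusted p of 0.0164 by limma-trend, where 0.338% of the genes tested were called higher. In Cd2 vs. CK it was 1.18 ± 0.19 (0.77 to 1.60), with an adjusted p of 0.0729 by limma-trend. The Cd2 change was thus the larger of the pair, was above that of 99.1% of the genes tested, and did not pass the threshold. Neither did the changes of 0.70 ± 0.21 in Cd1 vs. CK (adjusted p = 0.0908 by limma-trend) and 0.78 ± 0.19 in As2 vs. CK (adjusted p = 0.206 by limma-trend). The As1 call was lost without As1 replicate 2 (log2 fold change 0.97), As1 replicate 3 (adjusted p = 0.0764 by limma-trend), CK replicate 1 (0.0510) or CK replicate 3 (0.0619). The Cd2 change was called without As2 replicate 2 (adjusted p = 0.0412 by limma-trend), which belongs to neither group, and with quantile normalization (log2 fold change 1.42, adjusted p = 0.0197). Quantile normalization ended the As1 call (log2 fold change 0.99), as did fitting only the groups compared (adjusted p = 0.0558 by limma-trend).

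Between 10 d and 15 d, the group means of CSS0018401 differed in opposite directions under the metals. Every Cd2 library lay above every Cd1 library, as for 17.9% of the genes tested, and the log2 fold change was 0.48 ± 0.21 (0.02 to 0.95, adjusted p = 0.321 by limma-trend). As2 and As1 overlapped, with As2 higher in 2 of 9 pairs of libraries, and the log2 fold change was -0.28 ± 0.19 (-0.70 to 0.13, adjusted p = 0.476 by limma-trend). The change with time under Cd minus that under As was 0.77 ± 0.29 on the log2 scale (0.14 to 1.39). Its unadjusted p was 0.0198 and its adjusted p 0.290 by limma-trend, a test that called 0.275% of the genes tested. The difference between the metals in the course of this gene was therefore not called. The maximum at 10 d was present under As by group means, and under Cd the highest mean was that at 15 d.

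**Figure D1:**
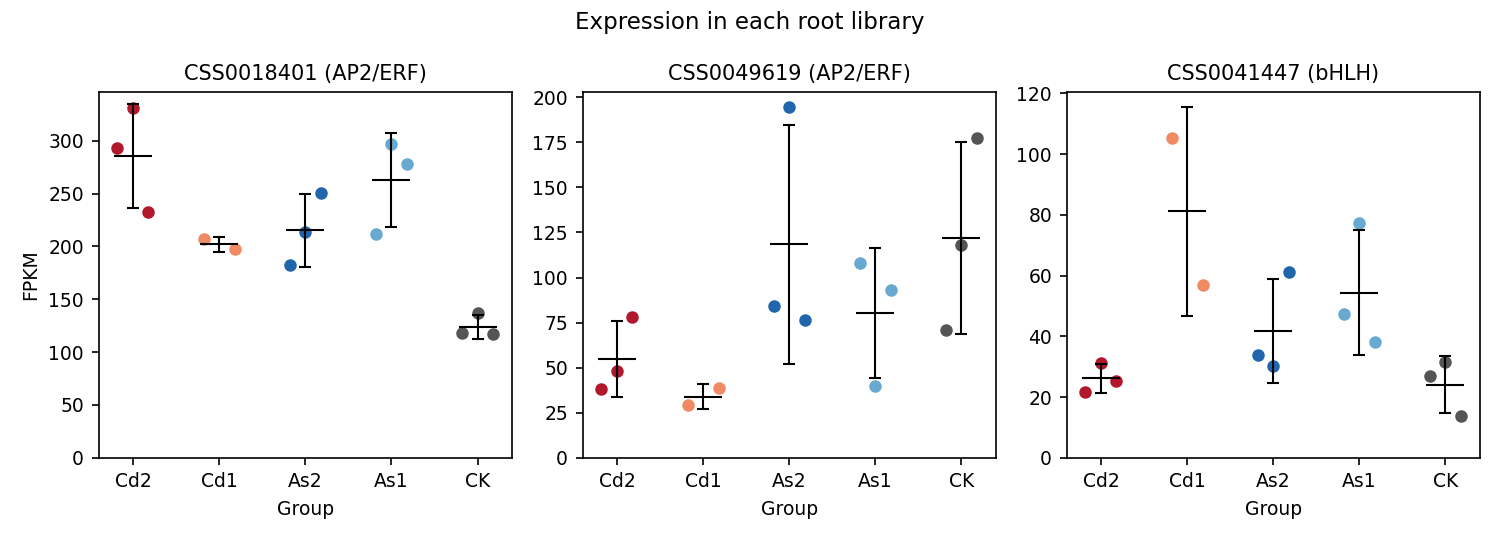
FPKM of the 3 genes in each of the 14 root libraries (points), with the group mean (horizontal bar) and SD (vertical bar), for Cd2, Cd1, As2, As1 and CK from left to right, with 2 libraries in Cd1 and 3 in the other groups. CSS0018401 lies between 182 and 331 in the treated libraries and between 118 and 137 in CK, CSS0049619 is lowest in Cd1 at 29.1 and 38.9, and CSS0041447 is highest in Cd1 at 105 and 56.9.

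CSS0049619 had its lowest group mean at 10 d under both metals, the reverse of the stated course. The FPKM was 38.1, 48.2 and 78.3 in Cd2 and 29.1 and 38.9 in Cd1. It was 84.1, 195 and 76.5 in As2 and 108 (replicate 1), 39.6 and 93.3 in As1. In CK it was 70.7, 118 and 177. Cd1 alone separated from CK, with both of its libraries below all 3 CK libraries, as was the case for 19.2% of the genes tested. Cd2 overlapped CK through Cd2 replicate 3, and As2 and As1 overlapped CK widely.

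From lowest to highest, the group means of CSS0049619 ran in the order Cd1, Cd2, As1, As2 and CK. They were 54.9 ± 20.9 FPKM in Cd2 (SD, n = 3), 34.0 ± 6.98 in Cd1 (n = 2), 118 ± 66.1 in As2 (n = 3), 80.3 ± 35.9 in As1 (n = 3) and 122 ± 53.3 in CK (n = 3). All pairs of neighbours in this order overlapped. By group medians the As series had no low point at 10 d, since the As1 median of 93.3 lay above the As2 median of 84.1 and below the CK median of 118. The low point in the As means was still found when any single library was left out.

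No comparison of CSS0049619 was called with all 14 libraries. The log2 fold change in Cd1 vs. CK was -1.73 ± 0.51 (SE; 95% interval -2.83 to -0.63, adjusted p = 0.0807 by limma-trend), lower than for all but 3.57% of the genes tested. In Cd2 vs. CK it was -1.11 ± 0.46 (-2.09 to -0.12, adjusted p = 0.342 by limma-trend). The As comparisons were nearer to 0, at -0.08 (-1.06 to 0.90, adjusted p = 0.974 by limma-trend) in As2 vs. CK and -0.62 (-1.61 to 0.36, adjusted p = 0.498) in As1 vs. CK. Their intervals do not show that As left the gene unchanged. The Cd1 change was called without As2 replicate 2 (adjusted p = 0.0463 by limma-trend), which belongs to neither group.

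With time, CSS0049619 was higher at 15 d than at 10 d by group means under both metals, and neither difference passed. In Cd2 vs. Cd1 the log2 fold change was 0.63 ± 0.51 (-0.48 to 1.73, adjusted p = 0.634 by limma-trend), with Cd2 higher in 5 of 6 pairs of libraries. It was 0.54 ± 0.46 in As2 vs. As1 (-0.44 to 1.53, adjusted p = 0.578 by limma-trend), with As2 higher in 5 of 9 pairs. The difference between these changes, 0.08 ± 0.68 (-1.39 to 1.56, adjusted p = 0.979 by limma-trend), has an interval wide enough to hold a change of over 1 in either direction.

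CSS0041447, the bHLH gene, had its highest group mean at 10 d under both metals. The FPKM was 21.7, 31.3 and 25.5 in Cd2 and 105 and 56.9 in Cd1. It was 33.9, 30.2 and 61.3 in As2 and 47.4, 77.5 and 38.1 in As1. In CK it was 26.8, 31.7 and 13.7. Both Cd1 libraries lay above all CK libraries, as for 16% of the genes tested, and above all Cd2 libraries, and 8.19% of the genes tested had every Cd1 library above every CK and every Cd2 library. The As1 libraries all lay above the CK libraries (10.8% of the genes tested) and overlapped those of As2 through As2 replicate 3.

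The group means of CSS0041447 ran in the order Cd1, As1, As2, Cd2 and CK. They were 26.1 ± 4.86 FPKM in Cd2 (SD, n = 3), 81.1 ± 34.3 in Cd1 (n = 2), 41.8 ± 17.0 in As2 (n = 3), 54.3 ± 20.6 in As1 (n = 3) and 24.1 ± 9.30 in CK (n = 3). The Cd1 mean was 3.37 times the CK mean and the As1 mean 2.26 times. As2 stood at 1.74 times the CK mean and Cd2 at 1.09 times. Cd1 and As1 overlapped, as did As1 and As2, As2 and Cd2, and Cd2 and CK, so neighbours in the order were not separated.

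The Cd1 change of CSS0041447 was called. The log2 fold change in Cd1 vs. CK was 1.72 ± 0.41 (SE; 95% interval 0.83 to 2.61, adjusted p = 0.0408 by limma-trend), above that of 99.5% of the genes tested, where 0.453% were called higher. In As1 vs. CK it was 1.16 ± 0.37 (0.36 to 1.95, adjusted p = 0.120 by limma-trend) and was not called. At 15 d the changes were smaller and not called, 0.18 ± 0.37 in Cd2 vs. CK (-0.62 to 0.97, adjusted p = 0.887 by limma-trend) and 0.78 ± 0.37 in As2 vs. CK (-0.02 to 1.57, adjusted p = 0.562). The Cd1 call was lost when any of 8 libraries was left out. The adjusted p by limma-trend was then 0.275 without Cd1 replicate 1, 0.0633 without Cd1 replicate 2, 0.0510 without CK replicate 2, 0.126 without CK replicate 3, 0.0555 without As1 replicate 1, and 0.0548, 0.0555 and 0.0541 without Cd2 replicates 1, 2 and 3. It was also not called without the filter on low FPKM (adjusted p = 0.0646 by limma-trend), with the repeated table kept under both labels (0.239) or with only the groups compared in the fit (0.0965). Cd1 replicate 1, which had the highest value of the gene at 105 FPKM, also had 36480 genes above 0 against 39745 in Cd1 replicate 2, and the part of this in the result was not tested.

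Cd2 lay below Cd1 in all 6 pairs of libraries for CSS0041447, as for 15.8% of the genes tested. The log2 fold change of -1.55 ± 0.41 in Cd2 vs. Cd1 (-2.44 to -0.66) was lower than for all but 0.882% of the genes tested, and its adjusted p was 0.0883 by limma-trend. With quantile normalization it was called (log2 fold change -1.61, adjusted p = 0.0496 by limma-trend). In As2 vs. As1 it was -0.38 ± 0.37 (-1.17 to 0.42, adjusted p = 0.643 by limma-trend), with As2 higher in 2 of 9 pairs. The change with time under Cd minus that under As was -1.17 ± 0.55 (-2.36 to 0.02, adjusted p = 0.415 by limma-trend). The larger difference with time under Cd was thus not called as a difference between the metals.

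**Figure D2:**
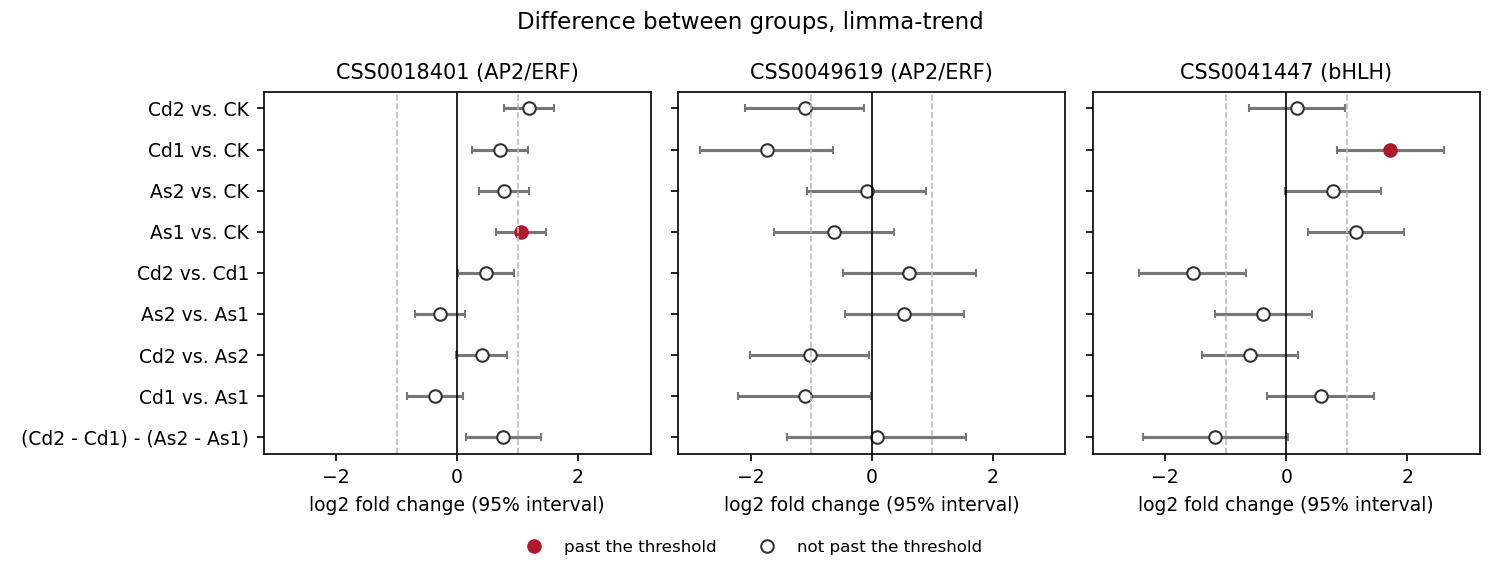
Log2 fold change (point) and 95% interval (bar) of the 3 genes in the 9 comparisons, on the log2(FPKM + 1) scale by limma-trend; the first group named in each comparison is over or minus the second, and dashed lines mark a |log2 fold change| of 1. Filled points passed the threshold, which were CSS0018401 in As1 vs. CK at 1.06 and CSS0041447 in Cd1 vs. CK at 1.72.

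Cd and As were compared at the same time. The study named the genes for a course under both metals, not for a difference between them. It did so from these same libraries, and the genes were followed here with earlier results of these data known. At 10 d, both Cd1 libraries of CSS0018401 lay below all As1 libraries, and so did both of CSS0049619, as for 16.5% of the genes tested, whereas CSS0041447 was higher in Cd1 in 5 of 6 pairs. The log2 fold change in Cd1 vs. As1 was -0.36 ± 0.21 for CSS0018401 (-0.82 to 0.10, adjusted p = 0.391 by limma-trend). It was -1.11 ± 0.51 for CSS0049619 (-2.21 to -0.01, adjusted p = 0.266 by limma-trend). It was 0.57 ± 0.41 for CSS0041447 (-0.32 to 1.46, adjusted p = 0.493 by limma-trend). At 15 d all 3 genes overlapped between the metals. The log2 fold change in Cd2 vs. As2 was 0.40 ± 0.19 for CSS0018401 (-0.01 to 0.82, adjusted p = 0.415 by limma-trend), with Cd2 higher in 8 of 9 pairs. It was -1.03 ± 0.46 for CSS0049619 (-2.01 to -0.04, adjusted p = 0.383 by limma-trend) and -0.60 ± 0.37 for CSS0041447 (-1.40 to 0.19, adjusted p = 0.541), with Cd2 higher in 1 of 9 pairs for each. No difference between the metals was called, and the intervals leave room for differences of more than 1 on the log2 scale for CSS0049619 and CSS0041447.

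The stated course was set against all genes tested by group means alone, with no test. A mean at 10 d above both the CK mean and the 15 d mean was found for 37% of the genes under Cd, for 35% under As and for 16.8% under both. CSS0041447 had this course under both metals and CSS0018401 under As, also when any single library was left out. A mean at 10 d below both others was found for 37.3% of the genes under Cd, 40.3% under As and 19.4% under both, and CSS0049619 was among these. A stricter form, with every 10 d library above every CK and 15 d library, was met by 8.19% of the genes under Cd, 5.19% under As and 0.749% under both. CSS0041447 met it under Cd, and none of the 3 genes met it under As or under both. With 2 libraries in Cd1 against 3 in As1, the stricter form was easier to meet under Cd. Without As2 replicate 3, CSS0041447 met it under both metals, as did 1.44% of the genes, and without As1 replicate 1, CSS0018401 met it under As, as did 9.03%. Both series share the CK libraries.

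The genes differed in how closely replicates repeated. The pooled SD within groups on the log2(FPKM + 1) scale was 0.21 for CSS0018401, 0.65 for CSS0049619 and 0.51 for CSS0041447. CSS0018401 was thus among the more even genes, with an SD above that of 15.0% of the genes tested, against 85.8% for CSS0049619 and 72.6% for CSS0041447. These shares depend on the pseudocount, and with 0.1 they were 11.6%, 64.5% and 53.9% for the genes in that order. Among genes of a like mean level, the median SD was 0.33 around CSS0018401 (473 genes), 0.27 around CSS0049619 (1493 genes) and 0.26 around CSS0041447 (2890 genes). The SD was above that of 19.0%, 90.5% and 86.6% of such genes, in the same order. Of the variance over the 14 libraries, 86.4% lay between groups for CSS0018401, 58.1% for CSS0049619 and 68.1% for CSS0041447, where the median of all genes tested was 45.3%. The groups therefore separated most clearly for CSS0018401, although its range was the narrowest, with the highest library at 2.81 times the lowest, against 6.70 times for CSS0049619 and 7.67 times for CSS0041447.

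The counting error was smaller than this spread. The genes were covered by 1157 to 3431 fragments per library for CSS0018401, 659 to 3754 for CSS0049619 and 272 to 2304 for CSS0041447. The counting error alone would give an SD of 0.033, 0.040 and 0.057 on the log2 scale for the genes in that order, below the pooled SD of each. The exact Poisson 95% interval of a single library reached at most 5.81%, 7.71% and 12.1% from its value for the genes in that order. These are means of the upper and lower reach, and the upper reach is the larger. The interval covers counting error only, since the fragments carried no molecular identifiers.

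CSS0049619 and CSS0041447 tended to depart from their group means in opposite directions, in 11 of 14 libraries. CK replicate 3 had the highest CSS0049619 of its group at 177 FPKM and the lowest CSS0041447 at 13.7. Within As1, replicate 2 had the lowest CSS0049619 at 39.6 and the highest CSS0041447 at 77.5. As2 replicate 2 had 195 for CSS0049619 beside 30.2 for CSS0041447. Over all 14 libraries Pearson's r between them was -0.57 on the log2(FPKM + 1) scale (Spearman's rho -0.37), and -0.65 on the deviations from group means. CSS0018401 and CSS0049619 had r = -0.47 (rho -0.36), and CSS0018401 and CSS0041447 had r = 0.37 (rho 0.20). These are descriptions over 14 libraries that share treatments and depth, and deviations within a group add up to 0. As1 replicate 2 also had the fewest genes above 0 (35674) and CK replicate 3 the most (39868), and the part of this in the opposed values was not tested.

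The genes with the most similar pattern were taken by Pearson's r on log2(FPKM + 1) over the 14 libraries. For CSS0049619 they were CSS0039605 (r = 0.963, rho 0.943), CSS0000540 (0.962, rho 0.930) and a gene outside the reference annotation (0.956, rho 0.956). CSS0039605 had 18.6, 20.8 and 31.2 FPKM in Cd2, 7.56 and 19.4 in Cd1, 26.6, 84.9 and 27.3 in As2, 54.5, 16.2 and 38.7 in As1, and 33.4, 58.4 and 103 in CK. It shared the high As2 replicate 2 and CK replicate 3 and the low As1 replicate 2 of CSS0049619. This follows in part from the choice by r over the same libraries. On deviations from group means r was 0.956. In all, 72 genes had r above 0.9 with CSS0049619.

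For CSS0041447 the most similar genes were CSS0046332 (r = 0.961, rho 0.899), CSS0013573 (0.954, rho 0.947) and CSS0049536 (0.951, rho 0.912), and 43 genes had r above 0.9. CSS0046332 had 22.9, 33.3 and 28.8 FPKM in Cd2, 102 and 56.0 in Cd1, 35.6, 37.1 and 59.0 in As2, 47.3, 74.7 and 59.1 in As1, and 37.3, 30.6 and 18.2 in CK. Like the bHLH gene, it was highest in Cd1 replicate 1 and lowest in CK replicate 3, which also follows in part from the choice by r. The r on deviations from group means was 0.892, 0.903 and 0.850 for the 3 genes in that order.

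CSS0018401 had no gene with r above 0.9. The most similar were CSS0000928 (r = 0.888, rho 0.824), a gene outside the reference annotation (0.872, rho 0.908) and CSS0015343 (0.868, rho 0.877). The mean FPKM of CSS0000928 was 10.9 in Cd2, 9.39 in Cd1, 9.23 in As2, 10.8 in As1 and 5.60 in CK, higher in every treated group than in CK, as for CSS0018401. On deviations from group means r was 0.781, 0.735 and 0.523 for the 3 genes in that order, so the likeness of CSS0015343 lay more in the group means than in single libraries.

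**Figure D3:**
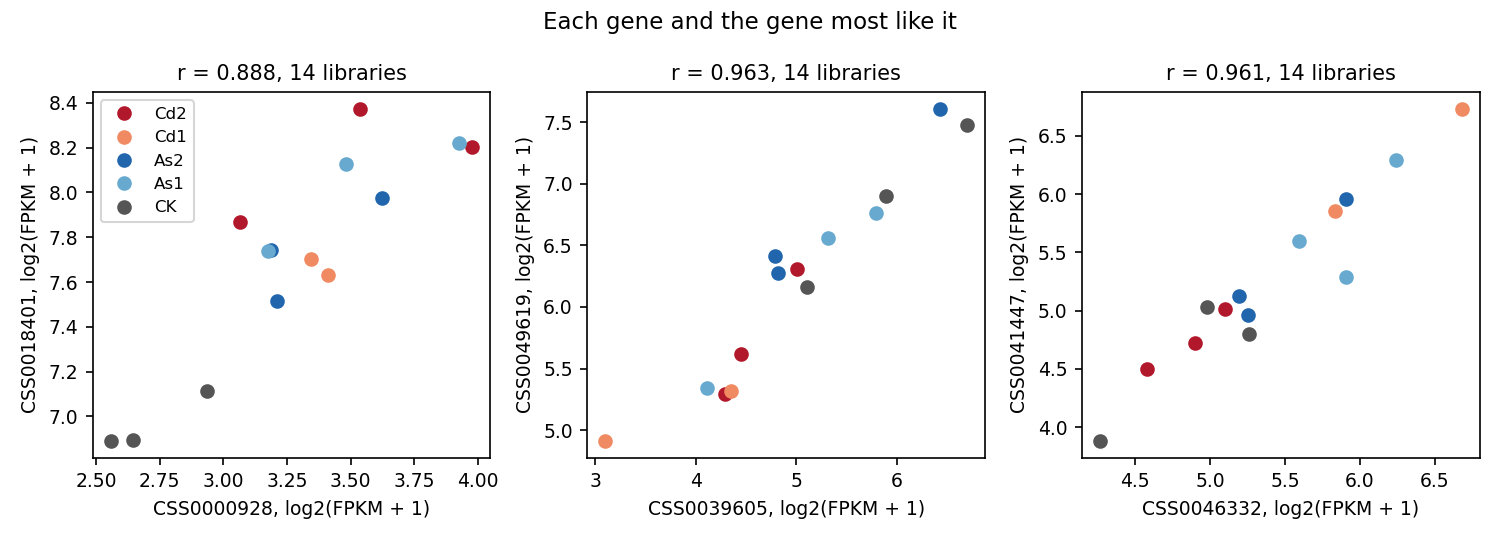
Each of the 3 genes (vertical axis) against the gene with the highest Pearson's r to it (horizontal axis), both as log2(FPKM + 1), with 1 point per library coloured by group. The r over 14 libraries is 0.888 for CSS0018401 with CSS0000928, 0.963 for CSS0049619 with CSS0039605 and 0.961 for CSS0041447 with CSS0046332, and the CK points sit apart at the low end for CSS0018401 only.

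The text of the study names 4 other AP2/ERF genes, and all 4 passed the filter. They had been picked from these same libraries, so their counts are not independent evidence of a direction. Called by limma-trend as lower than in CK were 4 of 4 in Cd1, where 2.73% of all genes tested were called lower, and 4 of 4 in As1, where 1.28% were. In Cd2, 1 of 4 was called lower (CSS0043971; background 0.0302%). In As2, 0 of 4 were called, although 4 had a |log2 fold change| over 1 at an unadjusted p under 0.05, as had 3.19% of all genes tested. With limma-voom on recovered fragments, 0 of 4 were called in Cd2, 3 in Cd1, 0 in As2 and 4 in As1. The median log2 fold change of the 4 genes was -3.15 in Cd2, -3.63 in Cd1, -2.80 in As2 and -3.15 in As1, beside all-gene medians of 0.01, 0.01, 0.01 and -0.02.

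Among these, CSS0043971 averaged 0.165 ± 0.144 FPKM in Cd2, 0.522 ± 0.738 in Cd1, 1.63 ± 1.92 in As2, 0.396 ± 0.464 in As1 and 12.3 ± 4.10 in CK (SD, n = 3, with 2 in Cd1). CSS0034513 and CSS0009309 likewise had their highest mean in CK. CSS0000647 stood apart from them, with 47.0 ± 3.68 FPKM in Cd2, 1.07 ± 0.264 in Cd1, 50.9 ± 28.7 in As2, 1.04 ± 0.296 in As1 and 13.0 ± 3.64 in CK. It had its lowest mean at 10 d and its highest at 15 d under both metals. Against CK, CSS0000647 had log2 fold changes of 1.81 in Cd2 and 1.79 in As2, opposite in sign to the medians of the list, and neither was called (adjusted p = 0.0741 and 0.101 by limma-trend). Its log2 fold change was 4.54 in Cd2 vs. Cd1 (adjusted p = 0.000106 by limma-trend) and 4.55 in As2 vs. As1 (adjusted p = 1.6e-05), and both were called, as 1.21% and 1.56% of the genes tested were called higher in these comparisons. In CSS0049619 the lowest mean was also that at 10 d, with much smaller and uncalled differences to 15 d of 0.63 and 0.54 on the log2 scale. Among the 6 AP2/ERF genes described, CSS0018401 was thus the one whose treated libraries all lay above CK.

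**Figure D4:**
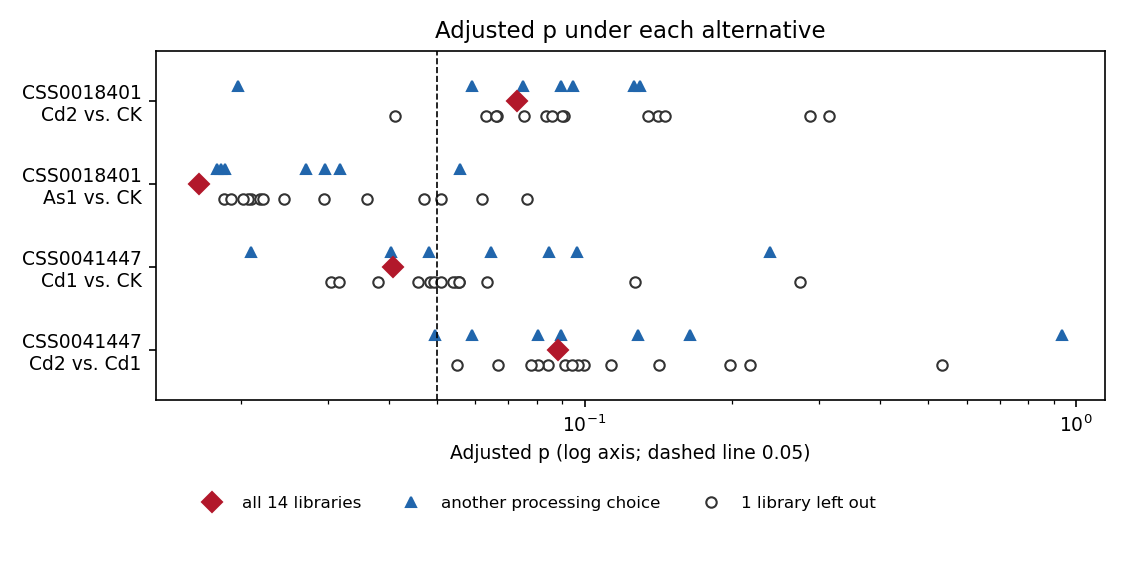
Adjusted p (horizontal log axis) of the 4 comparisons of CSS0018401 and CSS0041447 nearest to the threshold, with all 14 libraries (diamonds), under other processing choices (triangles) and with 1 library left out (circles); the dashed line is 0.05. For CSS0018401 in As1 vs. CK, 2 values left of the line were not called because the log2 fold change fell under 1 (0.99 and 0.97), and for CSS0041447 in Cd1 vs. CK the points lie on both sides, with 0.0408 for all libraries and 0.275 without Cd1 replicate 1.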

How the data were processed

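Root RNA of 'Fuding Dabaicha' was sequenced in 15 libraries. Trimmed reads were mapped by the authors with HISAT, and FPKM values of 59128 genes per library were deposited. The tea genome version is not given in the sources used here. The median ratio of a library to the geometric mean library was 1.0124 to 1.016, so the libraries were not scaled again. The table labelled Cd1 replicate 3 repeated that of Cd2 replicate 1, which its header names, and was used only under that name. FPKM rises in equal steps per fragment within a gene and library. On this basis, whole fragments (tolerance 0.02) were recovered for 100% of the 46517 genes above 0. The smallest count that made every library whole was taken. A gene above 0 in a single library therefore passes whatever its true count.

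Differences were fitted on log2(FPKM + 1), which understates the change of low genes, with limma 3.58.1 (lmFit, eBayes with trend) in R 4.3.3 over the genes that reached an FPKM of 1 in 3 or more libraries. The fit was run on simulated data with the same spread setting for all genes and larger fold changes than those of the 3 genes. How well changes of the size seen here would be called was therefore not tested. Other values came from Python 3.11.15, numpy 2.4.6, pandas 2.3.3, scipy 1.17.1 and matplotlib 3.10.9. Named were the 3 genes, the 3 most similar genes of each, and the AP2/ERF genes of the study's text, with its 8 MYB genes as a list. These choices were made with earlier results of these data known. Alternatives varied the pseudocount (0.1), the filter, the scaling (quantile), the model (replicate block, only the groups compared, limma-voom on recovered fragments), the identical library and each library in turn.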

Additional observations from a re-analysis of the deposited data

How the results depend on the processing

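Each of the 27 comparisons of the 3 genes was recomputed under 21 different alternatives. Of the 567 values, 532 kept direction and side of the threshold, 18 lost a call, 4 gained one and the rest changed sign, and 18 of the 27 comparisons kept both throughout. The causes of these changes were not tested. CSS0041447 in Cd1 vs. CK was called in 9 of 21 alternatives. It was not called without a filter on low FPKM (log2 fold change 1.72, adjusted p = 0.0646), with the identical library left out under both labels, which is the fit without Cd2 replicate 1 and counted once (1.72, 0.0548), or kept under both (1.13, 0.239), or with only the groups compared in the fit (1.72, 0.0965), and it ranged from 1.28 to 2.16 (adjusted p 0.0304 to 0.275) with 1 library left out. With a replicate block it was 1.66 (0.0847). CSS0018401 in As1 vs. CK was called in 15 of 21. It was not called with quantile normalization (0.99, 0.0179) or only the groups compared (1.06, 0.0558), and ranged from 0.97 to 1.21 with 1 library left out. CSS0018401 in Cd2 vs. CK was called with quantile normalization (1.42) and ranged from 1.07 to 1.32, CSS0049619 in Cd1 vs. CK ranged from -2.07 to -1.42, and CSS0041447 in Cd2 vs. Cd1 was called with quantile normalization (-1.61). Quantile normalization also moved the CSS0018401 mean in Cd1 to 226 FPKM, above As2 at 216, and the median log2 fold change of all genes in Cd1 vs. CK to 0.11, with 26.7% of the calls higher, against 14.2% without it.

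The sign changed in 13 values. CSS0041447 in Cd1 vs. As1 was -0.030 with the identical library kept under both labels, and in Cd2 vs. CK it ranged from -0.17 to 0.41 with 1 library left out. CSS0049619 in As2 vs. CK ranged from -0.50 to 0.23. Its difference in change with time was -0.039 with quantile normalization, -0.048 with the replicate block, and -0.20 to 0.52 with 1 library left out. Where leaving out a library left Cd1 with 1, that library was assumed to vary like the other groups.

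Replicate numbers did not pair the libraries. Of 26 pairs with the same number, 4 correlated above 0.1 in their deviations (median r 0.009, against 0.016 for different numbers), and 3 of 14 libraries correlated best with their own number. The replicate block called 672 genes in Cd1 vs. CK against 1053, 4 against 11 in Cd2 vs. CK, 0 against 5 in As2 vs. CK, 328 against 539 in Cd1 vs. As1 and 53 against 91 in the difference of changes with time. With 1 library left out, the genes called were 0 to 76 in Cd2 vs. CK, 257 to 1577 in Cd1 vs. CK, 0 to 111 in As2 vs. CK, 103 to 640 in As1 vs. CK, 150 to 597 in Cd2 vs. Cd1, 214 to 768 in As2 vs. As1 and 101 to 883 in Cd1 vs. As1, and the highest count in the Cd2 and As2 comparisons with CK was that without As2 replicate 2. Under other alternatives they were 371 to 1104 in Cd1 vs. CK, 252 to 532 in As1 vs. CK and 0 to 621 in Cd2 vs. Cd1.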

Other observations

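The 8 MYB genes named in the study's text, which like the AP2/ERF genes were picked from these libraries, all passed the filter. Called by limma-trend as lower than in CK were 1 of 8 in Cd2, 3 of 8 in Cd1, 1 of 8 in As2 and 2 of 8 in As1. The study names most of the 8 as reduced under Cd and 2 as reduced under As, so the pooled list is not its claim for either metal. The 2 called in As1 were the 2 it names under As, and 1 of these was called in As2. Of all 33109 genes tested, 0.0302% in Cd2, 2.73% in Cd1 and 1.28% in As1 were called lower. In As2, 3 of the 33109 genes tested were called lower, and 0.0151% were called in either direction. With limma-voom on recovered fragments, 1 of 8 was called against CK in each treated group. The MYB median of the log2 fold changes was -1.61 in Cd2, -1.86 in Cd1, -0.82 in As2 and -1.21 in As1, beside all-gene medians of 0.01, 0.01, 0.01 and -0.02.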
